A study of Homo sapiens with 15 samples.

Results

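The extracellular matrix and integrin mRNAs are the transcripts of the proteins that surround cells and of the receptors that hold on to them. Members were chosen by a rule on gene symbols. The rule took the protein-coding genes of the collagen, laminin, integrin, ADAMTS, fibrillin, fibulin and thrombospondin families together with FN1, SPARC, TNC, HSPG2 and VCAN. It used no measured values, but the members were chosen with earlier results of these data known. Of 127 symbols that matched, 94 passed the count filter, as did 16612 genes in all. The filter asked for 10 or more counts in 2 or more of the 3 replicates, separately in all 5 conditions. The 94 members were 29 collagens, 11 laminins, 19 integrins, 13 ADAMTS and 4 ADAMTS-like genes, 5 fibrillins or fibulins, 4 thrombospondins, 4 other glycoproteins, the proteoglycan HSPG2, and 4 genes that share the letters of the rule but encode no matrix or integrin protein. The RNA came from cytosolic extract of U2OS cells, a human osteosarcoma line, and was sequenced as poly(A) RNA in 15 libraries, 3 biological replicates in each of 5 groups. The labels call the line wild type, whereas the study describes its pelleted condensates as those of YFP-G3BP1, so the extract may come from cells that express this tagged protein. The input was extract that was not spun down, and the other 4 groups were the material pelleted from extract after 2 h. The mock extract was left untreated, the dsRNA extract received 250 nM double-stranded RNA, which activates the kinase PKR, the silvestrol extract received 2 µg/ml of this inhibitor of the helicase eIF4A, and the PEG extract received 1% polyethylene glycol, a crowding agent. The mock pellet differed from the input in pelleting and not in an added agent, and whether the input was also incubated is not given in the labels. For the other 3 pellets the comparison with input joins pelleting and agent, which cannot be told apart there, and the comparison with mock holds pelleting constant.

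Collagens, laminins, fibronectin and their relatives are secreted proteins, and integrins span the plasma membrane as pairs of an alpha and a beta chain. Their mRNAs are known to be translated at the endoplasmic reticulum (ER), to which a hydrophobic signal sequence near the start of the protein directs the ribosome. Collagen chains wind into a triple helix that requires glycine as the first residue of each repeated triplet, and osteosarcoma cells, like the bone-forming lineage they derive from, are known for abundant type I collagen and SPARC.

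The libraries held 15341973 to 46939993 counts, with a median of 35584710, and the PEG libraries were the shallowest group at 15341973 to 25675182. On the scale of CPM without normalisation between libraries, the mesenchymal and osteoblast markers were present throughout, with RUNX2 at 38.4 to 80.7 and VIM at 976 to 2281, whereas PTPRC, ALB, HBB and CD3E did not exceed 0.486 and EPCAM lay at 5.16 to 14.3. All values below are CPM (counts scaled to a common library total) after TMM normalisation between libraries, listed in the order of replicates 1, 2 and 3. The libraries hold RNA of extract and of pellets spun from it, and a higher CPM in a pellet is a larger share of that pellet's mRNA, not an amount.

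The starts of the reading frames are shown first because most members encode secreted or membrane proteins. In the GENCODE transcripts of GRCh38, 87 of the 94 members (92.6%) carried a hydrophobic stretch within the first 40 codons, defined as 8 residues with a mean Kyte-Doolittle hydropathy of at least 2, against 27.03% of 13468 protein-coding genes. The starts below show this for chains of the matrix and an integrin, and its absence from the first residues of 2 cytoplasmic or nuclear proteins that carry the letters ITGB in their symbols. Each is the first 96 coding bases, 5′ to 3′, with the codons of the most hydrophobic stretch in capitals, and where the interval is longer than 96 bases an intron lies within it.
COL4A2 (chr13:110307904-110308120, plus strand): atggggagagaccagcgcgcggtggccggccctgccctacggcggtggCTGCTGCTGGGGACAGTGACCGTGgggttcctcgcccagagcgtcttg
LAMC1 (chr1:183023717-183023812, plus strand): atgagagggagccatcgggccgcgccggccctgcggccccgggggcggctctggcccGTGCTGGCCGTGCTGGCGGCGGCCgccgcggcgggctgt
FN1 (chr2:215435707-215435802, minus strand): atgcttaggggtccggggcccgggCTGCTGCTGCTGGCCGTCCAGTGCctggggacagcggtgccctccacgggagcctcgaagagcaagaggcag
SPARC (chr5:151674636-151676188, minus strand): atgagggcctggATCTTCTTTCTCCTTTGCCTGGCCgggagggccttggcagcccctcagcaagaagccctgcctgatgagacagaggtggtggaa
ITGB1 (chr10:32932572-32935558, minus strand): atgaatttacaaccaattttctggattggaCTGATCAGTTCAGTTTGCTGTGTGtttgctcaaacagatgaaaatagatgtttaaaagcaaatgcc
ITGB1BP1 (chr2:9414233-9418697, minus strand): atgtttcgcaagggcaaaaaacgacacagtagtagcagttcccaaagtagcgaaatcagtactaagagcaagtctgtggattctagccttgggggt
ITGB3BP (chr1:63490171-63523133, minus strand): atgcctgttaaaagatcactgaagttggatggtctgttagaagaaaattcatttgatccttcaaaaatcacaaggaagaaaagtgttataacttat
The first 5 have the stretch and the last 2, which have no capitals, do not.

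The collagens share a second feature, the repeat that builds the triple helix. A run of at least 10 codon triplets that each begin with a glycine codon was present in 29 of 29 collagens and in 21 of 13374 other protein-coding genes. The longest run held 23 to 343 triplets, with a median of 66, and 7 fibrillar chains, COL1A1, COL2A1, COL3A1, COL5A1, COL5A2, COL11A1 and COL11A2, had 338 to 343. The first 81 bases of the longest run are shown for a fibrillar and a network-forming chain, with the glycine codons in capitals; the run begins at codon 179 of COL1A1 and at codon 782 of COL4A2.
COL1A1 (chr17:50197976-50198441, minus strand, with an intron inside the interval): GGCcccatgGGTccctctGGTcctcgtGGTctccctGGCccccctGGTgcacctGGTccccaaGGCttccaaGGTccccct
COL4A2 (chr13:110473069-110473149, plus strand): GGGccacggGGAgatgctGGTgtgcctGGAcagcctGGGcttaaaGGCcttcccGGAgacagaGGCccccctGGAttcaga
Both stretches are rich in G and C, at 70.4% and 65.4%, and the glycine codon itself supplies a pair of G bases at each repeat.

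The first comparison asked which member mRNAs took a larger or smaller share of the pelleted material than of the unspun extract. In the mock pellet 35 members rose and 3 fell against the input, where 17.6% of all genes tested rose and 15.8% fell at the same threshold, an adjusted p under 0.05 (quasi-likelihood test of edgeR, Benjamini-Hochberg adjusted over 16612 genes). In the dsRNA pellet 50 members rose and 4 fell, beside 21.1% and 19.6% of all genes. In the silvestrol pellet 45 rose and 4 fell, beside 19.4% and 18.1%. The median log2 fold change of the 94 members was 0.70 for mock, 0.84 for dsRNA and 0.83 for silvestrol. Without the 4 genes that encode no matrix or integrin protein the counts were 35 and 1, 50 and 2, and 45 and 2. The 3 comparisons use the same 3 input libraries, so their values are given side by side and are not separate support for each other.

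These counts depended on how the replicates were handled. The test above did not use the replicate numbers. In an alternative fit they were treated as pairing the libraries, although the labels give the number only. With the number as a block 73 members rose and 4 fell in mock, 72 and 4 in dsRNA and 73 and 4 in silvestrol, beside 32.5%, 31.0% and 30.8% of all genes that rose and 30.1%, 29.1% and 28.7% that fell. Among same-numbered libraries the mock to input ratio was over 1 in all 3 pairs for 76 of 94 members, compared with 36.9% of all genes. The corresponding count was 77 in dsRNA, beside 37.0% of all genes, and 76 in silvestrol, beside 37.5%. Without the pairing, leaving out 1 library lowered the count that rose in mock to 19 without input replicate 2, 20 without input replicate 3, 16 without mock replicate 2 and 11 without mock replicate 3. In dsRNA it fell to 32 without dsRNA replicate 2 and 29 without dsRNA replicate 3, and in silvestrol to 26 and 24 without silvestrol replicates 2 and 3. The calls that stood whichever single library was left out numbered 10 in mock, 28 in dsRNA and 21 in silvestrol.

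**Figure D1:**
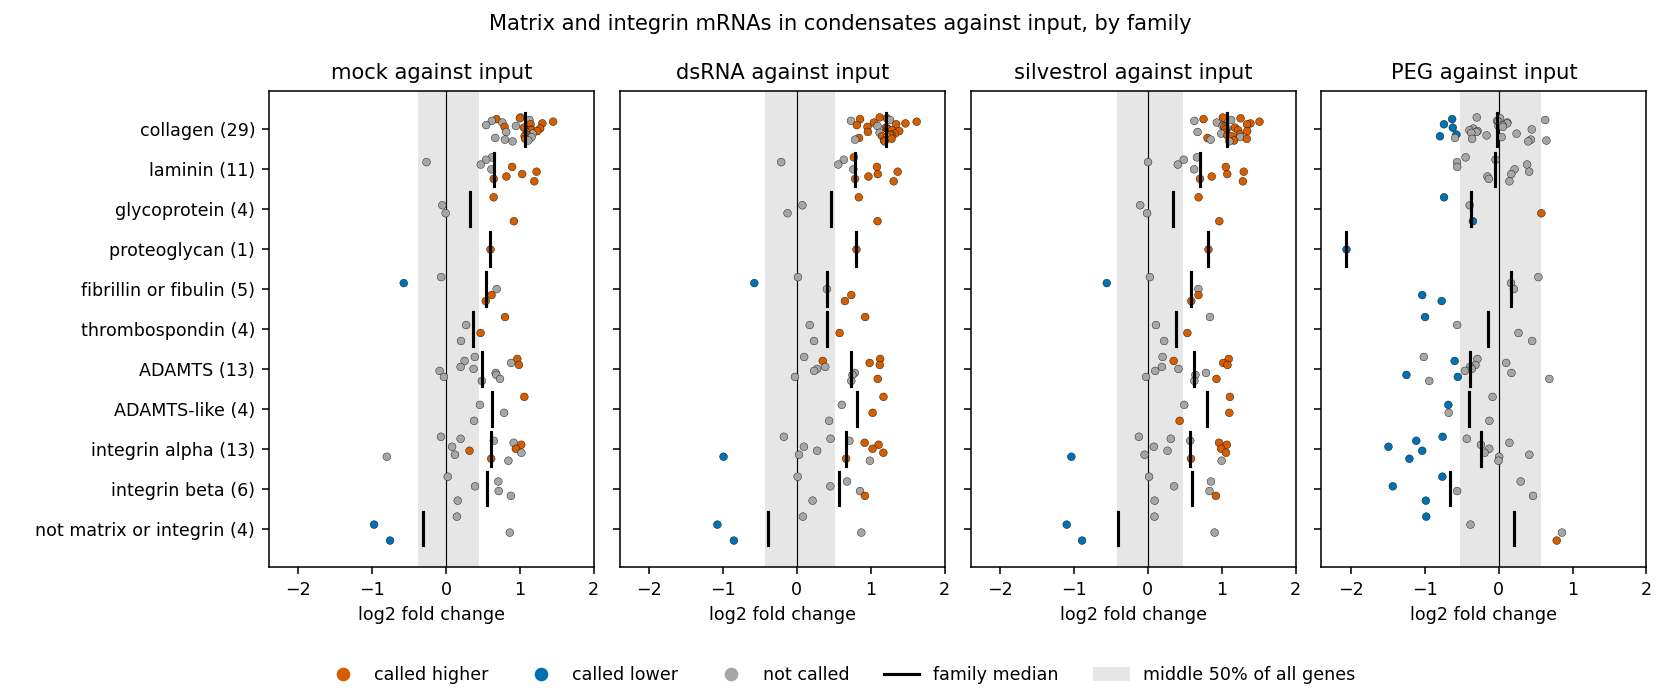
Log2 fold change of each member in the 4 pellets against input (x axis), grouped by family (y axis), with members that rose in orange, members that fell in blue and members with an adjusted p of 0.05 or more in grey. The black bar is the family median and the grey band holds the middle 50% of all genes; the collagen median lies at 1.07 in mock, 1.20 in dsRNA and 1.08 in silvestrol, and at -0.02 in PEG.

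Collagens had the highest medians of the families with more than 5 members. Of 29 collagens, 15 rose in mock, 23 in dsRNA and 19 in silvestrol, none fell in these comparisons, and the log2 fold change was above 0 for all 29 in each of them. Their medians were 1.07, 1.20 and 1.08, and all 29 had a ratio over 1 in each of the 3 same-numbered pairs of each of these pellets with input. The median ratio over the collagens was 2.53, 1.83 and 1.99 in the 3 mock pairs, 2.85, 2.09 and 2.02 in the dsRNA pairs and 2.93, 2.00 and 1.898 in the silvestrol pairs, so the first pair gave the largest ratio each time.

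COL1A1, the main chain of type I collagen (chr17:50183289-50201632), was the most abundant collagen per kilobase of exon in the input at 59.1 CPM per kb. It measured 510.1, 591 and 638 CPM in the input, 1328, 1061 and 1366 CPM in mock, 1765, 1186 and 1343 CPM in dsRNA, 1802, 1179.6 and 1339 CPM in silvestrol, and 356, 328 and 322 CPM in PEG. The mock, dsRNA and silvestrol libraries all lay above every input library, and the PEG libraries all lay below. COL1A1 rose by 1.15 ± 0.15 in mock (log2 fold change ± SE, adjusted p = 0.00361), by 1.34 ± 0.18 in dsRNA (adjusted p = 0.00251) and by 1.34 ± 0.19 in silvestrol (adjusted p = 0.00275). Its partner chain COL1A2 held only 1 to 10 counts in any library and was not among the 94 members.

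Among the other fibrillar chains, COL5A1, which helps to set the width of type I fibrils, also rose. It measured 119, 143 and 161 CPM in the input, 299, 257 and 327 CPM in mock, 362, 293 and 343 CPM in dsRNA and 381, 289 and 312 CPM in silvestrol. The log2 fold changes were 1.09 (adjusted p = 0.00391), 1.28 (adjusted p = 0.00244) and 1.25 (adjusted p = 0.00249), with no overlap with the input. COL5A2 was scarcer, at 9.11, 16.2 and 19.6 CPM in the input and 21.5, 33.4 and 39.6 CPM in mock. The lowest mock library of COL5A2 therefore lay only just above the highest input library. COL5A2 rose by 1.10 in mock (adjusted p = 0.0316), 1.26 in dsRNA (adjusted p = 0.0118) and 1.08 in silvestrol (adjusted p = 0.0161); the mock call was lost without input replicate 2, mock replicate 2 or mock replicate 3 (log2 fold change 0.83 to 1.31 over the 6 omissions) and the silvestrol call without silvestrol replicate 2 or 3 (0.81 to 1.29). Of the 8 fibrillar chains measured, 7 rose in mock, 8 in dsRNA and 7 in silvestrol.

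COL16A1, a chain found along the surface of fibrils (chr1:31652247-31704319), had the largest rise of the better expressed members in all 3 pellets. Its values were 34.0, 45.5 and 55.7 CPM in the input, 119, 105 and 137 CPM in mock, 146, 119 and 139 CPM in dsRNA and 147, 108 and 123 CPM in silvestrol. Each of these 9 pellet libraries exceeded every input library. The log2 fold changes were 1.45 ± 0.19 (adjusted p = 0.00361), 1.62 ± 0.19 (adjusted p = 0.00244) and 1.51 ± 0.20 (adjusted p = 0.00249). COL12A1, of the same surface class, rose by 0.68 (adjusted p = 0.0283), 0.86 (adjusted p = 0.00855) and 0.75 (adjusted p = 0.023). Its mock call was lost without input replicate 2 or 3 or mock replicate 1 or 3 (0.53 to 0.84), and its silvestrol call without input replicate 2 or 3 (0.52 to 0.90).

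The basement membrane collagens COL4A1 and COL4A2 lie head to head on chromosome 13 (chr13:110148963-110307149 and chr13:110305812-110513027), and their annotated ends overlap on opposite strands, so reads in the overlap could not be assigned to one of them if strand was not used in counting. COL4A2 measured 106, 169 and 201 CPM in the input, 304, 353 and 435 CPM in mock, 372, 375 and 460.1 CPM in dsRNA and 400.2, 372 and 409.9 CPM in silvestrol. COL4A1 measured 38.7, 63.6 and 75.3 CPM in the input, 120.3, 117 and 151 CPM in mock, 141, 129.9 and 152 CPM in dsRNA and 151, 120.1 and 135 CPM in silvestrol. For both chains the input replicate 1 library was the lowest of all 12 and no pellet library reached down to the input range. COL4A2 rose by 1.24 ± 0.25 (adjusted p = 0.00988), 1.39 ± 0.23 (adjusted p = 0.00381) and 1.35 ± 0.22 (adjusted p = 0.004), and COL4A1 by 1.16 (adjusted p = 0.0108), 1.29 (adjusted p = 0.00443) and 1.22 (adjusted p = 0.0061). COL18A1, another basement membrane chain and the source of endostatin, was low, at 3.91, 9.57 and 10.2 CPM in the input and 12.1, 21.2 and 24.4 CPM in mock, and rose by 1.305 ± 0.38 (adjusted p = 0.0352), 1.47 (adjusted p = 0.013) and 1.39 (adjusted p = 0.0144). The mock call of COL18A1 was lost without input replicate 2 or 3 or mock replicate 2 or 3 (0.98 to 1.55) and its silvestrol call without silvestrol replicate 2 (1.06 to 1.58).

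The type VI collagen chains, which form beaded microfibrils around cells, showed how far the first replicate stood from the other two. COL6A2 measured 50.4, 150.4 and 159 CPM in the input, 133, 293 and 359.6 CPM in mock, 167, 312 and 339 CPM in dsRNA and 163, 310.3 and 368 CPM in silvestrol. The first mock library lay below the other two input libraries, so the groups overlapped, yet each mock library exceeded the input library of its own number by 2.65, 1.95 and 2.26 times. The log2 fold change of COL6A2 was 1.16 ± 0.48 in mock (adjusted p = 0.102), 1.22 in dsRNA (adjusted p = 0.0525) and 1.25 in silvestrol (adjusted p = 0.0573), and with the replicate block the adjusted p values were 2.45e-09, 0.000137 and 2.04e-05. COL6A3 had log2 fold changes of 0.67 (adjusted p = 0.134, 6.09e-07 with the block), 0.84 (adjusted p = 0.0475) and 0.81 (adjusted p = 0.0485), and the latter 2 calls were each lost on leaving out any single library other than the first treated one (0.58 to 1.02 and 0.53 to 0.95). COL6A1 rose by 1.07 ± 0.35 (adjusted p = 0.0485), 1.15 (adjusted p = 0.024) and 1.14 (adjusted p = 0.0248). Its mock call was lost without any library but mock replicate 1 (0.75 to 1.28), and its dsRNA and silvestrol calls without the treated replicate 2 or 3 (0.85 to 1.38 and 0.82 to 1.35).

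**Figure D2:**
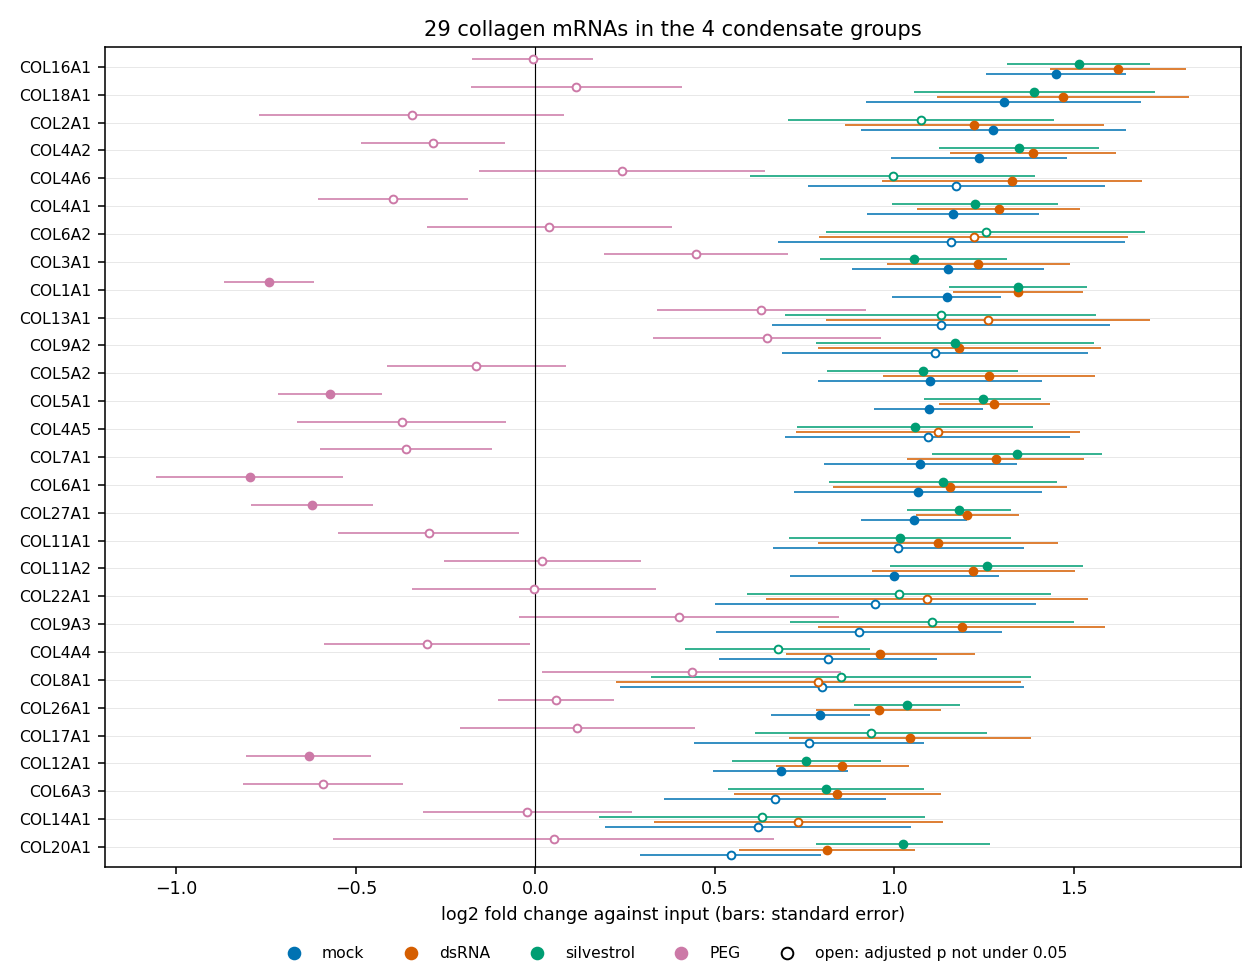
Log2 fold change with its standard error (x axis) of the 29 collagens (y axis) in mock, dsRNA, silvestrol and PEG pellets against input, with open symbols where the adjusted p was not under 0.05. All 29 points lie above 0 in mock, dsRNA and silvestrol, and in PEG they spread on both sides of a median of -0.02.

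Laminins, the cross-shaped trimers of basement membranes, followed at a smaller size. Of 11 laminins, 6 rose in mock, 7 in dsRNA and 6 in silvestrol and none fell, with median log2 fold changes of 0.65, 0.79 and 0.71. LAMB2 (chr3:49121114-49133118) measured 65.3, 109.9 and 119 CPM in the input, 158, 237 and 278 CPM in mock, 204, 246 and 287 CPM in dsRNA and 201, 243 and 265 CPM in silvestrol. All 9 of these pellet libraries exceeded the highest input library. LAMB2 rose by 1.23 ± 0.28 (adjusted p = 0.0145), 1.36 (adjusted p = 0.00425) and 1.299 (adjusted p = 0.0048), and the mock call was lost without mock replicate 2 or 3 (0.98 to 1.42).

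LAMC1, the gamma chain shared by most laminins, rose by 0.82 ± 0.17 in mock (adjusted p = 0.0116), 0.97 in dsRNA (adjusted p = 0.00445) and 0.87 in silvestrol (adjusted p = 0.00398). Its values were 125, 153 and 159 CPM in the input and 203, 246 and 302 CPM in mock, again without overlap. LAMA5, at 89.0, 166 and 174 CPM in the input and 185, 272 and 322 CPM in mock, rose by 0.89 (adjusted p = 0.0492), 1.08 (adjusted p = 0.0137) and 1.06 (adjusted p = 0.0138). The LAMA5 call was lost in mock without any library but mock replicate 1 (0.63 to 1.09) and in dsRNA without dsRNA replicate 3 (0.83 to 1.24). LAMB1 overlapped the input, at 102, 153 and 163 CPM against 133, 233 and 260.0 CPM in mock, and its log2 fold changes of 0.61 (adjusted p = 0.123), 0.76 (adjusted p = 0.0563) and 0.63 (adjusted p = 0.0825) passed the threshold only with the replicate block (adjusted p = 4.9e-06, 0.000343 and 0.000258). HSPG2, the basement membrane proteoglycan perlecan, measured 60.2, 73.0 and 74.8 CPM in the input and 102, 92.0 and 113 CPM in mock and rose by 0.60 ± 0.13 (adjusted p = 0.0135), 0.80 (adjusted p = 0.00351) and 0.82 (adjusted p = 0.00445), with the mock call lost without mock replicate 3 (0.49 to 0.67). With offsets for GC content and transcript length its values turned to -0.14, -0.072 and -0.0043.

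The soluble and adhesive glycoproteins divided. TNC, the tenascin of remodelling tissue (chr9:115019578-115118257), measured 78.8, 69.0 and 80.3 CPM in the input and 145, 119.7 and 156 CPM in mock. It rose by 0.92 (adjusted p = 0.00416), 1.09 (adjusted p = 0.00244) and 0.97 (adjusted p = 0.00375) with no overlap. FN1, fibronectin (chr2:215360440-215436172), measured 172, 204 and 223 CPM in the input, 235, 299 and 379 CPM in mock, 298, 337 and 405 CPM in dsRNA and 279.9, 294 and 369 CPM in silvestrol. FN1 rose by 0.65 ± 0.19 (adjusted p = 0.036), 0.84 (adjusted p = 0.00575) and 0.69 (adjusted p = 0.0123), and the call was lost in mock without any library but mock replicate 1 (0.46 to 0.80) and in silvestrol without silvestrol replicate 3 (0.56 to 0.77). SPARC, a collagen-binding protein of bone and the member with the highest input level per kilobase (112 CPM per kb), showed neither direction. It measured 484, 561 and 584 CPM in the input, 495, 554 and 536 CPM in mock, 461, 487 and 501 CPM in dsRNA and 472, 541 and 570.1 CPM in silvestrol. These ranges overlapped throughout, and the log2 fold changes were -0.00 (adjusted p = 0.981), -0.13 (adjusted p = 0.45) and -0.01 (adjusted p = 0.965).

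FBN1 and FBN2, the fibrillins of elastic microfibrils, rose by 0.62 (adjusted p = 0.0139) and 0.54 (adjusted p = 0.0473) in mock, 0.74 (adjusted p = 0.00459) and 0.65 (adjusted p = 0.019) in dsRNA, and 0.69 (adjusted p = 0.0154) and 0.59 (adjusted p = 0.0225) in silvestrol. The FBN1 calls were lost in mock without input replicate 2 or 3 or mock replicate 3 (0.54 to 0.72) and in silvestrol without input replicate 2 or 3 or silvestrol replicate 3 (0.56 to 0.84). The FBN2 calls were lost in mock without any library but mock replicate 1 (0.37 to 0.63), in dsRNA without dsRNA replicate 2 or 3 (0.50 to 0.74) and in silvestrol without input replicate 2 or silvestrol replicate 3 (0.42 to 0.66). FBLN5, a fibulin needed for elastic fibre assembly, went the other way, from 15.6, 17.8 and 17.1 CPM in the input to 9.15, 11.5 and 12.6 CPM in mock, 9.51, 11.0 and 12.4 CPM in dsRNA and 9.31, 9.82 and 14.5 CPM in silvestrol. No pellet library of these 3 groups reached the input range. Its log2 fold changes were -0.57 (adjusted p = 0.024), -0.58 (adjusted p = 0.0148) and -0.56 (adjusted p = 0.0478), and the calls were lost in mock without input replicate 2 or 3 or mock replicate 2 (-0.67 to -0.45), in dsRNA without input replicate 2 or dsRNA replicate 2 (-0.67 to -0.48) and in silvestrol without input replicate 2 or 3 or silvestrol replicate 1 or 2 (-0.78 to -0.44).

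Of 4 thrombospondins, 2 rose in mock, 2 in dsRNA and 1 in silvestrol. THBS1, a matricellular regulator of adhesion and TGF-beta, had its highest value of each of these groups in the first replicate, at 373, 228 and 247 CPM in the input, 619, 355 and 464 CPM in mock, 703, 389 and 470.3 CPM in dsRNA and 726, 346 and 415 CPM in silvestrol. The second mock and silvestrol libraries lay below the first input library. THBS1 rose by 0.80 in mock (adjusted p = 0.047) and 0.92 in dsRNA (adjusted p = 0.0257), and its log2 fold change in silvestrol was 0.84 (adjusted p = 0.0607, 0.000105 with the block). The 2 calls were each lost without input replicate 2 or 3 or the treated replicate 1 or 3 (0.57 to 1.03 and 0.65 to 1.16). Of the 13 ADAMTS metalloproteases, which trim procollagens and proteoglycans, 2 rose in mock, 5 in dsRNA and 5 in silvestrol, with medians of 0.48, 0.74 and 0.63. The share in mock was no higher than the 17.6% of all genes that rose there, and the other two stand beside 21.1% and 19.4%.

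Integrins were mixed. Of the 13 alpha chains, 4 rose in mock, 5 in dsRNA and 5 in silvestrol, and of the 6 beta chains none rose in mock and 1 rose in each of the others. These counts stand beside 17.6%, 21.1% and 19.4% of all genes, and the beta chains did not exceed them. The median log2 fold change of the alpha chains was 0.61, 0.67 and 0.57 and that of the beta chains 0.55, 0.57 and 0.60. ITGA5, the alpha chain of the fibronectin receptor (chr12:54395261-54419460), measured 55.7, 69.0 and 68.6 CPM in the input, 115, 113 and 136 CPM in mock, 142, 116 and 124 CPM in dsRNA and 139.8, 112 and 125 CPM in silvestrol. All pellet libraries of the 3 groups lay above the input, and ITGA5 rose by 0.95 ± 0.13 (adjusted p = 0.00402), 1.02 (adjusted p = 0.00253) and 0.99 (adjusted p = 0.0027). Its partner ITGB1, the beta chain common to most matrix receptors (chr10:32900319-33005792), measured 551, 590.1 and 642 CPM in the input, 537, 574 and 657 CPM in mock, 476, 589.5 and 681 CPM in dsRNA and 504, 602 and 659 CPM in silvestrol. Its ranges overlapped the input fully, with log2 fold changes of 0.02 (adjusted p = 0.903), 0.01 (adjusted p = 0.964) and 0.02 (adjusted p = 0.938).

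Of the other alpha chains, ITGA3, a laminin receptor chain, measured 200.04, 319 and 334 CPM in the input and 431, 588 and 668 CPM in mock. It rose by 1.02 (adjusted p = 0.0162), 1.11 (adjusted p = 0.00541) and 1.07 (adjusted p = 0.00674), and the mock call was lost without mock replicate 2 or 3 (0.80 to 1.18). ITGAV, the alpha chain of RGD-binding receptors (chr2:186590065-186680901), measured 83.7, 86.3 and 89.2 CPM in the input and 117, 119 and 151 CPM in mock and rose by 0.61 (adjusted p = 0.0122), 0.67 (adjusted p = 0.00638) and 0.58 (adjusted p = 0.00642), with the mock call lost without input replicate 2 (0.48 to 0.68). ITGA6, another laminin receptor chain, rose by 0.32 in mock (adjusted p = 0.0388), a call that was lost without any library but mock replicate 1 (0.28 to 0.34). In dsRNA and silvestrol ITGA6 had log2 fold changes of 0.27 (adjusted p = 0.063, 0.0355 with the block) and 0.27 (adjusted p = 0.0931, 0.0421 with the block). ITGB3, the partner of ITGAV in the vitronectin receptor, had log2 fold changes of 0.39 (adjusted p = 0.283), 0.45 (adjusted p = 0.211) and 0.36 (adjusted p = 0.291), which passed the threshold with the block (adjusted p = 0.000812, 0.00392 and 0.01).

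ITGAE, an integrin chain of lymphocytes, had the opposite direction, but its locus overlaps other annotated transcription and its counts are uncertain where strand was not used. It measured 40.6, 21.5 and 21.5 CPM in the input, 19.9, 14.5 and 12.3 CPM in mock, 14.7, 13.5 and 12.5 CPM in dsRNA and 14.9, 13.98 and 10.96 CPM in silvestrol. No library of these pellets reached the lowest input library, and the first input library stood well above the other two. Its log2 fold change was -0.80 in mock (adjusted p = 0.0692, 1.11e-06 with the block), and it fell by 0.99 in dsRNA (adjusted p = 0.0164) and by 1.04 in silvestrol (adjusted p = 0.0184), calls that were lost without the treated replicate 2 or 3 (-1.18 to -0.63 and -1.23 to -0.69).

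None of the 4 genes caught by the letters of the rule rose in these pellets in the unblocked test. ITGB3BP encodes a centromere protein and ITGB1BP1 a cytoplasmic adaptor of the integrin beta tail. ITGB3BP (chr1:63440770-63593721) measured 51.2, 35.4 and 36.0 CPM in the input, 22.9, 25.3 and 22.5 CPM in mock, 20.0, 23.6 and 22.3 CPM in dsRNA and 19.5, 22.7 and 22.5 CPM in silvestrol. It lay below the input in every one of these libraries and its log2 fold changes were -0.76 ± 0.17 (adjusted p = 0.013), -0.85 (adjusted p = 0.00651) and -0.89 (adjusted p = 0.0061), with the mock call lost without mock replicate 3 (-0.89 to -0.58). ITGB1BP1 (chr2:9403475-9423547) measured 93.8, 49.0 and 53.1 CPM in the input and 45.1, 27.7 and 24.3 CPM in mock, and its log2 fold changes were -0.97 (adjusted p = 0.048), -1.08 (adjusted p = 0.0139) and -1.10 (adjusted p = 0.0187). The ITGB1BP1 calls were lost in mock without input replicate 1 or 3 or mock replicate 2 or 3 (-1.29 to -0.64), and in dsRNA and silvestrol without the treated replicate 2 or 3 (-1.28 to -0.73 and -1.34 to -0.77). COL4A3BP, a ceramide transfer protein now named CERT1, had log2 fold changes of 0.15, 0.08 and 0.09. ITGB1BP2, a muscle chaperone at 0.387 to 0.952 CPM in the input, had values of 0.86 (adjusted p = 0.0957), 0.87 (adjusted p = 0.086) and 0.90 (adjusted p = 0.113), which passed the threshold with the block (adjusted p = 0.00789, 0.0157 and 0.014).

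Whether dsRNA or silvestrol changed the share of these mRNAs in the pellet was read from the comparison with the mock pellet. No member passed the threshold in either comparison, beside 0.0% of all genes in each. Small changes could be missed by this test, which had no block. In counts simulated for dsRNA against mock with a shared replicate effect, it found 0 of 200 genes planted at a log2 fold change of 0.5. The blocked test found 149 of them. The size of the simulated replicate effect was set and not estimated from these libraries, so these counts do not show what either test could find among the members. The median log2 fold change of the members was 0.11 for dsRNA against mock and 0.05 for silvestrol against mock. At an unadjusted p under 0.05 no member and 374 of all genes differed for dsRNA, and 1 member, COL20A1, named after its value was seen, and 35 of all genes differed for silvestrol. DESeq2 called no member in either comparison. With the replicate block no member was called in either comparison, beside 2.81% of all genes for dsRNA and 0.012% for silvestrol. With the block and a GC offset, FN1 and COL12A1 were called for dsRNA. The largest positive values among the better expressed members were 0.22 for COL11A2, 0.20 for COL7A1 and 0.20 for HSPG2 in dsRNA, and 0.27 for COL7A1, 0.26 for COL11A2 and 0.24 for COL26A1 in silvestrol. The largest negative values were -0.20 for ITGAE, -0.13 for SPARC and -0.11 for ITGB1BP1 in dsRNA, and -0.23 for ITGAE, -0.13 for ITGB3BP and -0.12 for ITGB1BP1 in silvestrol. In same-numbered pairs 45 of 94 members had a dsRNA to mock ratio over 1 in all 3 pairs and 4 under 1, beside 17.9% and 16.9% of all genes, and for silvestrol 18 and 4 members did so, beside 14.3% and 13.4%. The Spearman correlation of log2 fold change with GC content was 0.36 for dsRNA and 0.61 for silvestrol across the members. Across all genes it was 0.37 and 0.36.

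The PEG pellet, a condensate formed by crowding, was compared with the input and with mock. Against the input 2 members rose and 24 fell, where 25.5% of all genes rose and 25.9% fell, and the median log2 fold change was -0.29. The members that fell were thus at the share of all genes, and the share that rose was smaller than among all genes. The blocked fit gave 7 and 27 members, beside 28.0% and 27.8%. Leaving out input replicate 1 raised the count that fell to 44, and scaling by library size alone gave 1 and 42, beside 14.1% and 41.5% of all genes. Against the mock pellet 6 members rose and 61 fell, beside 31.3% and 32.2% of all genes, with a median of -0.90. The 2 comparisons share the PEG libraries. Of the 29 collagens, 5 fell against the input, a share no higher than that of all genes, and none rose. Against mock 21 collagens fell, with a median of -1.13. Of the 19 integrins, 8 fell against the input, 3 of them beta chains, whereas no laminin passed the threshold against the input. Against mock 7 laminins, 8 alpha and 4 beta integrin chains and 9 ADAMTS genes fell.

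HSPG2 was the extreme member of the PEG pellet. It measured 28.9, 10.0 and 9.60 CPM in PEG, against 60.2 to 74.8 CPM in the input and 92.0 to 113 CPM in mock, with no overlap. This was 4.197-fold lower than the input (log2 fold change -2.07 ± 0.38, adjusted p = 0.0024) and 6.11-fold lower than mock (-2.61 ± 0.37, adjusted p = 0.000189). The first PEG library stood well above the other two. COL1A1, given above, fell by 0.74 ± 0.13 against the input (adjusted p = 0.00162) and was 3.55-fold lower than in mock (log2 fold change -1.83 ± 0.15, adjusted p = 9.51e-06). COL5A1, at 99.0, 77.8 and 98.2 CPM in PEG, fell by 0.57 against the input (adjusted p = 0.0103) and by 1.61 against mock (adjusted p = 1.54e-05).

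Most other collagens did not pass the test against the input in PEG. COL16A1 measured 44.8, 38.9 and 46.3 CPM in PEG and COL4A2 115, 124 and 137 CPM, values inside or among those of the input, with log2 fold changes against it of -0.01 (adjusted p = 0.976) and -0.29 (adjusted p = 0.258). Against mock they fell by 1.40 (adjusted p = 2.09e-05) and 1.46 (adjusted p = 2.53e-05), and COL4A1 by 1.503 (adjusted p = 1.67e-05). COL6A1, at 52.9, 50.2 and 53.5 CPM in PEG, fell by 0.80 against the input (adjusted p = 0.0299), a call that was lost without any library but input replicate 1 (-1.08 to -0.57). Against mock its log2 fold change was -1.804 (adjusted p = 3.59e-05). COL12A1 fell by 0.63 against the input (adjusted p = 0.0149) and by 1.25 against mock. COL6A3 had a log2 fold change of -0.59 against the input (adjusted p = 0.0512, 0.0353 with the block). COL9A2 and COL13A1 had the largest positive collagen values against the input, 0.65 (adjusted p = 0.118) and 0.63 (adjusted p = 0.0999).

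Several integrin chains fell in PEG. ITGAV measured 45.0, 27.7 and 36.0 CPM in PEG and fell by 1.21 against the input (adjusted p = 0.000765) and by 1.76 against mock (adjusted p = 3.04e-05). ITGB3, at 8.27, 6.03 and 5.35 CPM in PEG against 11.6, 20.8 and 22.0 CPM in the input, fell by 1.43 (adjusted p = 0.00191). ITGB1, at 350.1, 312 and 355 CPM in PEG, fell by 0.76 against the input (adjusted p = 0.00129) and by 0.72 against mock (adjusted p = 0.000793). All 3 genes had PEG libraries below every input library. ITGA6 fell by 1.04 against the input (adjusted p = 0.000506). ITGA5, in contrast, measured 53.4, 56.1 and 61.5 CPM, overlapped the input and fell only against mock, by 1.01 (adjusted p = 6.52e-05).

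Among the glycoproteins and other matrix genes, FN1 measured 116, 115 and 116 CPM in PEG and fell by 0.74 against the input (adjusted p = 0.00129) and by 1.32 against mock (adjusted p = 7.27e-05). THBS1, at 169, 113 and 132 CPM, fell by 1.00 (adjusted p = 0.00698) and 1.73 (adjusted p = 0.000116). ADAMTS3, the procollagen II N-proteinase, at 5.26, 3.31 and 3.61 CPM, fell by 1.25 (adjusted p = 0.00638) and 1.87 (adjusted p = 7.77e-05). The 3 genes had no PEG library in the range of the input or of mock. FBN1 and FBN2 fell by 1.04 (adjusted p = 0.00586) and 0.77 (adjusted p = 0.00249) against the input. TNC fell by 0.35 against the input (adjusted p = 0.0427), a call that was lost without input replicate 3 or PEG replicate 1 or 2 (-0.47 to -0.29). COL4A3BP fell by 0.98 (adjusted p = 0.00511).

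The 2 members that rose in PEG against the input were SPARC and ITGB3BP. SPARC measured 730.3, 829.7 and 790.3 CPM in PEG, above all other libraries on this scale, and rose by 0.58 ± 0.13 against the input (adjusted p = 0.00526) and by 0.64 against mock (adjusted p = 0.00128). ITGB3BP measured 60.3, 71.8 and 73.1 CPM, again above all others, and rose by 0.79 (adjusted p = 0.00663) and 1.61 (adjusted p = 7.89e-06). Scaling by library size alone, which moved the median of all genes to -0.36 against the input and -0.50 against mock, left SPARC at 0.22 and 0.17, neither past the threshold, and ITGB3BP at 0.45 and 1.14, both past it. Against mock FBLN5 rose by 0.80 (adjusted p = 0.00201), ITGAE by 0.88 (adjusted p = 0.002) and ITGB1BP1 by 0.66 (adjusted p = 0.0229), the last call being lost without mock replicate 2 or 3 (0.48 to 1.00). FBLN5, at 14.9, 20.5 and 19.4 CPM, and ITGAE, at 27.05, 27.98 and 26.6 CPM, overlapped the input. LAMB2, at 103, 131 and 143 CPM, had a log2 fold change of 0.41 against the input (adjusted p = 0.13, 0.0152 with the block) and fell by 0.75 against mock (adjusted p = 0.00716).

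Summed over the 94 members, the mRNAs made up 0.58% of the normalised count in the input, 0.94% in mock, 1.01% in dsRNA, 0.99% in silvestrol and 0.49% in PEG. The sum was 4788, 6157 and 6545 CPM in the input, 8073, 9246 and 10857 CPM in mock, 9349, 9867 and 11004 CPM in dsRNA, 9577, 9623 and 10550.3 CPM in silvestrol and 4687, 4903 and 5074 CPM in PEG. All 9 libraries of mock, dsRNA and silvestrol lay above the input, and PEG overlapped it. The ratio of means to the input was 1.61, 1.73 and 1.70, each at p = 0.1 in a two-sided exact permutation test, the smallest p that 3 against 3 libraries can give. PEG stood at 0.838 of the input (exact p = 0.3) and 1.92-fold below mock (exact p = 0.1). DsRNA and silvestrol stood at 1.07 and 1.06 of mock (exact p = 0.4 and 0.5).

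The collagens amounted to 1196, 1768 and 1940 CPM in the input, 3003, 3230 and 3966 CPM in mock, 3758, 3574 and 4014 CPM in dsRNA, 3887, 3490 and 3848 CPM in silvestrol and 1170, 1144 and 1217 CPM in PEG. Every mock, dsRNA and silvestrol library was higher than the highest input library. The ratios to the input were 2.08, 2.31 and 2.29 (exact p = 0.1 each), PEG was at 0.720 (exact p = 0.2), and PEG was 2.89-fold below mock (exact p = 0.1). Laminins had ratios of 1.7999, 1.97 and 1.89 and integrins 1.44, 1.48 and 1.46.

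**Figure D3:**
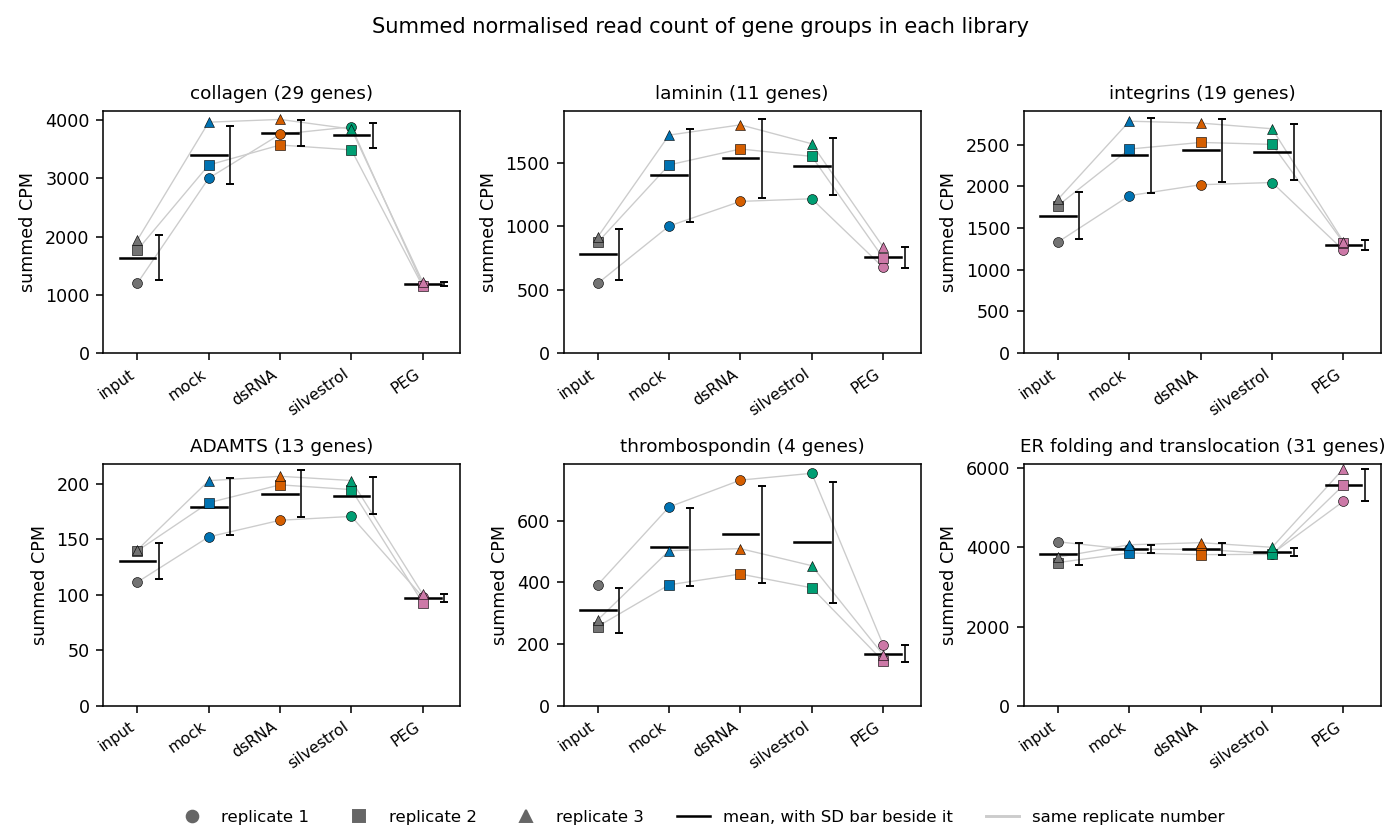
Summed CPM (y axis, from 0) in each library of the 5 groups (x axis) for collagens, laminins, integrins, ADAMTS genes, thrombospondins and a list of ER folding and translocation genes, with bars for the mean and SD of 3 libraries. The collagen sum lies between 3003 and 4014 CPM in mock, dsRNA and silvestrol libraries, above 1196 to 1940 CPM in the input and 1144 to 1217 CPM in PEG.

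Genes that work with the members were followed as 3 further lists, whose counts stand beside 17.6% of all genes that rose and 15.8% that fell in mock, 21.1% and 19.4% that rose in dsRNA and silvestrol, 19.6% and 18.1% that fell there, and 25.5% and 25.9% that rose and fell in PEG. Of 32 genes for matrix processing and other matrix proteins, 10 rose and 1 fell in mock, 16 and 2 in dsRNA and 15 and 2 in silvestrol, with medians of 0.50, 0.62 and 0.56, and in PEG 12 rose and 5 fell with a median of 0.23. AGRN, the proteoglycan agrin, rose by 1.05 (adjusted p = 0.0108), 1.23 and 1.19, whereas TGFBI, a secreted RGD protein, fell by 0.85 (adjusted p = 0.00403), 0.92 and 0.91. Of 31 genes for ER folding and translocation, 2 rose and 9 fell in mock, 2 and 12 in dsRNA, and 2 and 11 in silvestrol, with medians of -0.28, -0.22 and -0.28, while in PEG 20 rose and 4 fell with a median of 0.62. HSP90B1, the ER chaperone GRP94 and a gene with high counts in this list, differed from that median and rose by 1.47 in mock (adjusted p = 0.00358). CALR and CANX, also with high counts there, had log2 fold changes of -0.17 (adjusted p = 0.481) and -0.03 (adjusted p = 0.853) in mock. Of 30 genes for the cytoplasmic side of adhesion, 9 rose and 5 fell in mock, 9 and 7 in dsRNA, and 9 and 6 in silvestrol, with medians of 0.09, 0.13 and 0.13, and in PEG 3 rose and 17 fell with a median of -0.51. The counts that fell in mock, 5 of 30, were at the background share. FLNA, filamin, and TLN1, talin, rose by 0.74 (adjusted p = 0.0054) and 0.86 (adjusted p = 0.00392) in mock. ACTN4, which also had high counts in this list, had a log2 fold change of 0.14 (adjusted p = 0.375).

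Values of other genes with and without a hydrophobic start are given beside those of the members. The 3554 other protein-coding genes with such a start had median log2 fold changes of 0.11, 0.13 and 0.11 in mock, dsRNA and silvestrol, and the 9820 genes without one had -0.05, -0.06 and -0.06. The members with such a start had 0.69, 0.84 and 0.82. The 7 members without one, which include the 4 genes that encode no matrix or integrin protein, had 0.76, 0.87 and 0.90. These groups also differ in transcript length, and the part of the start in the values was not tested. Of the genes whose printed starts have the stretch, SPARC and ITGB1 overlapped the input in these pellets, and COL4A2, LAMC1 and FN1 lay above it without overlap. The hydrophobic starts were found in 32 of 32 genes for matrix processing, 24 of 31 for ER folding and translocation and 2 of 30 for cytoplasmic adhesion. COL16A1 and COL6A1 were just under the hydropathy cut, at 1.85 and 1.96.

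Across the members, base composition moved with the values against the input, and length did so only in PEG. The members had a median exon length of 7585.5 nt and a GC content of 52.6%, against 4427.5 nt and 49.6% over all genes. Across the 94 members the Spearman correlation of log2 fold change with GC content was 0.57 in mock, 0.59 in dsRNA and 0.68 in silvestrol, and across all 16529 genes with a value it was 0.41, 0.45 and 0.44. The correlation with exon length in these comparisons was -0.02, 0.02 and -0.03 across members, and 0.18, 0.18 and 0.18 across all genes. In PEG against the input it was -0.44 across members and -0.48 across all genes. These are descriptions across genes that share the same 6 libraries in each comparison. Offsets fitted per library for GC content and length left 19 members that rose in mock, 26 in dsRNA and 21 in silvestrol, beside 12.3%, 14.8% and 13.5% of all genes, with medians of 0.47, 0.58 and 0.56. A length offset left 9 members that rose and 9 that fell in PEG against the input, beside 22.5% and 18.8% of all genes, with a median of 0.07. Against mock it left 47 that fell, beside 25.7%, with a median of -0.49. HSPG2 changed sign with these offsets in mock, dsRNA and silvestrol, as given above. The part of length and base composition in the remaining differences was not tested.

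**Figure D4:**
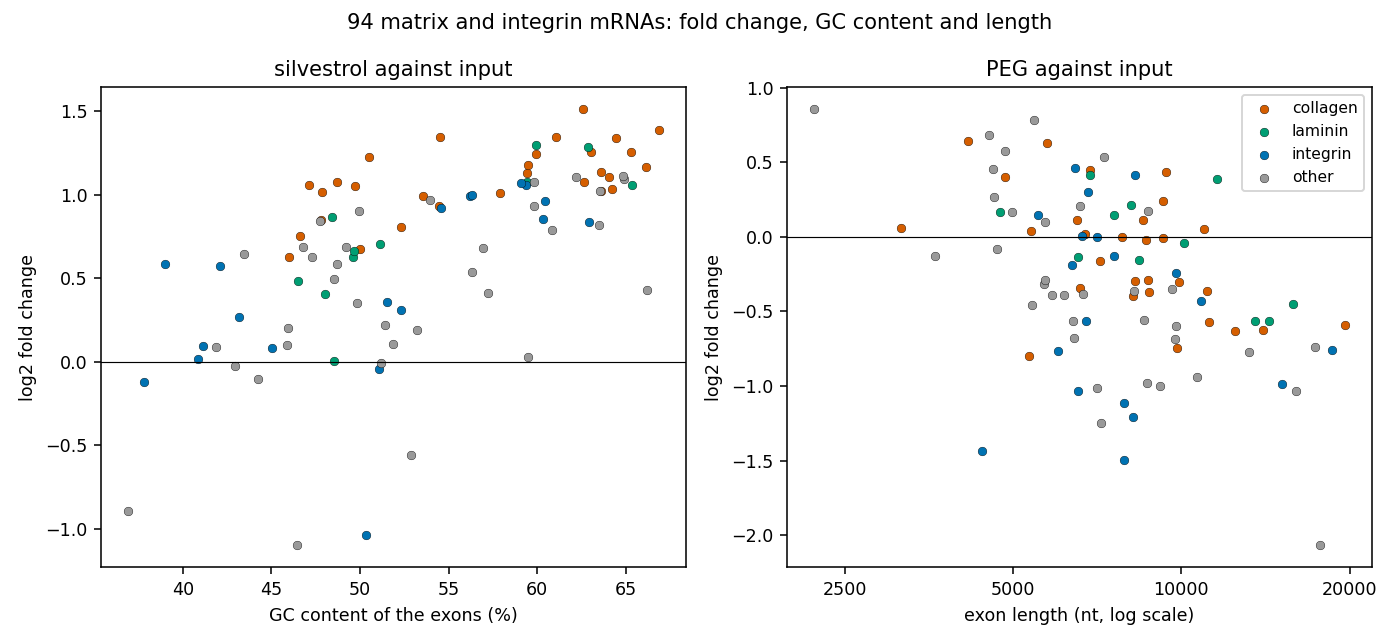
Log2 fold change of each of the 94 members (y axes) in silvestrol against input by GC content in percent (left) and in PEG against input by exon length in nt on a log axis (right). Collagens, laminins and integrins are coloured and the other members are grey. The Spearman correlation across the members is 0.68 on the left and -0.44 on the right, beside 0.44 and -0.48 across all genes.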

How the data were processed

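Poly(A) RNA of 15 libraries was compared, 3 biological replicates in each of 5 groups taken from the labels. The authors deposited raw counts per gene. Trimmomatic 0.36, STAR 2.5.2b, featureCounts of Subread 1.5.2 and GRCh38 are listed in the submitters' processing notes, and the annotation and strand setting of counting are not given in the sources used here. Of 57500 genes, 16612 were kept, with 10 or more counts in 2 or more replicates in all 5 conditions, the filter of the study's methods. Gene symbols and coordinates came from GENCODE 29, which matched 56898 genes, 54784 of them with the same start and end. Coding sequences were read from the GRCh38 reference with the same annotation.

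Differences were tested with edgeR 4.0.16 (R 4.3.3) by the quasi-likelihood test on raw counts with TMM normalisation, in 7 comparisons of 6 libraries each, with Benjamini-Hochberg adjustment over all genes kept and a threshold of 0.05. Sums of CPM were compared by exact permutation tests with scipy 1.17.1. The scripts were tested on simulated data. Same-numbered libraries deviated from their group means together (correlation 0.131 to 0.861 over 30 pairs of libraries). The replicate number was therefore used as a block in an alternative fit and for ratios of same-numbered libraries. The main tests and the permutation tests did not use it. Replicates 2 and 3 also correlated with each other across groups (0.109 to 0.583), and replicate 1 stood apart from both (-0.746 to -0.136). The labels give the number only. Alternatives were the replicate block, DESeq2 1.42.0, other scalings and count filters, GC and length offsets, and leaving out each library. The length offset, the joint GC and length offset and the omission of replicate 1 from both groups were added after the data were seen. The members and lists were chosen with earlier results of these data known. The genes named in the text were the best known members of each family, the 4 symbol matches outside the matrix, and the 3 largest positive and negative values in each comparison among members with a mean log2 CPM of at least 3; COL20A1 and the top genes of the other lists stand outside it. A marker and a coding start that belong to the same sets are not reported here. P values measure the spread between these libraries, whose biological independence rests on the labels.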

Additional observations from a re-analysis of the deposited data

How the results depend on the processing

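Member calls against the input depended on how the replicates were handled. With the replicate block 77 members were called in mock and 77 in silvestrol, with the block and a GC offset 77, 78 and, for dsRNA against mock, 2 (FN1 and COL12A1), and without replicate 1 of both groups 77 in mock, 77 in silvestrol and 58 in PEG against input. GC and length offsets left 21 in mock, 30 in dsRNA and 24 in silvestrol. On library size alone 43 were called in PEG against input, and the log2 ratio of the summed members was -0.56 for PEG against input and -1.34 for PEG against mock. Leaving out 1 library gave 12 to 51 called members in mock, 31 to 60 in dsRNA, 26 to 52 in silvestrol, 20 to 49 in PEG against input, 60 to 83 in PEG against mock and 0 to 0 in dsRNA and silvestrol against mock. HSPG2 turned to -0.14 in mock, -0.072 in dsRNA and -0.0043 in silvestrol with GC and length offsets. TNC in PEG against input turned to 0.079 with the length offset, and COL6A2 in PEG against input to -0.31 without input replicate 1, in a range of -0.31 to 0.29 over the single omissions, and to -0.24 without replicate 1 of both groups. The cause was not tested. Over the 40 named members, 4316 alternative values kept direction and side of the threshold, 202 passed it newly, 235 no longer passed it and 6 turned. For named members a call that the block changed is given beside its result, and the block changed no other call of theirs. Intervals of sums rest on 3 libraries a group, where the smallest exact p is 0.1.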

Other observations

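The 33 symbol matches that missed the count filter included genes that the PEG libraries alone removed. COL5A3, the third type V collagen chain, held 27, 23 and 19 counts in the input libraries, 163, 46 and 41 in mock, 216, 46 and 38 in dsRNA, 201, 55 and 51 in silvestrol, and 9, 8 and 4 in PEG. Its PEG counts were the lowest of the 15 libraries, although PEG replicates 2 and 3 were deeper than input replicate 1. The other 8 genes that failed in PEG alone were ADAMTS14, ADAMTS7, COL15A1, COL8A2, FBLN2, FBN3, ITGA10 and ITGAD. Another 9 matches, among them the cartilage chain COL10A1 and the leukocyte integrin chain ITGAL, did not reach 10 counts in any library. VCAN, the proteoglycan versican, held 1 to 45 counts. The genes chosen here beyond those the results name were picked after their counts were seen.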
